A study of Mus musculus with 2 samples.

Results

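The BCL2 family genes outside those tied to p53 were followed in RAW 264.7 cells, a mouse macrophage-like tumour line, after IFN-gamma with adenosine or IFN-gamma alone. The set held 10 genes, Bid, Bad, Bcl2l11, Bak1, Mcl1, Bcl2l1, Bcl2l2, Bcl2, Bnip3 and Bnip3l, of 12393 genes with a probe set of their own. A probe set is a group of short array probes read out as a single signal, and one was taken for a member if it carried that gene symbol and no other in the platform annotation. By this rule 9 of the 10 genes had 27 probe sets among 20380. Bnip3l had none, because its 3 probe sets also carry the symbol of the pseudogene Bnip3l-ps, and no value is given for it.

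Cells of the first group received 1000 U/ml IFN-gamma together with 300 uM adenosine for 4 h, and cells of the other group 1000 U/ml IFN-gamma for 4 h, so both groups were activated with IFN-gamma and untreated cells were not analysed here. RNA from 2 experiments was pooled per treatment and hybridized to 1 Affymetrix array each. The differences below therefore have no replicate check, and they are described by size, without tests or p-values. The study asked how adenosine, a purine nucleoside sensed by cell-surface receptors, alters gene expression in IFN-gamma-activated macrophages.

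Proteins of the BCL2 family decide whether the outer mitochondrial membrane stays intact. BH3-only proteins sense damage or death signals, the effector BAK1 forms pores that let cytochrome c out, and guardians such as MCL1 and BCL-XL hold both kinds in check. BNIP3 and BNIP3L carry a BH3-like stretch but are best known as receptors that mark mitochondria for removal by autophagy. Macrophages lean on MCL1 and on the related A1 proteins for survival during inflammation.

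The adenosine array was dimmer as a whole, with a deposited median of 15.2 against 45.9 for IFN-gamma alone (22626 probe sets). Signals of the adenosine array were multiplied by 2.82, which removes the common log2 shift of -1.50, and all signals below are on that scale unless called deposited. A gene counted as measured if its brighter signal reached a floor of 44.0, and a dimmer signal below the floor was raised to it. As the error of a log2 ratio, only the scatter between probe sets of a gene could be had; its SD was 0.52 over 2375 genes, with 0.55 for the dimmest and 0.40 for the brightest of 4 equal groups. Variation between cultures or arrays is not part of it. Spiked-in control transcripts (18 probe sets) had a deposited log2 ratio of -0.53 ± 0.19 (SD), so scaling on them leaves the median gene lower with adenosine. All 10 macrophage markers examined were measured, with summed signals of 39011 with adenosine and 30364 with IFN-gamma alone and a median log2 ratio of 0.05. Fcgr1 (-1.52) was 2-fold lower, Lyz2 (1.05) was 2-fold higher, and 8 lay within 2-fold. Of these 8, Mpeg1 and Cd86 lay at -0.83, Csf1r at -0.15 and Itgam at -0.04. Above 0 were Cd68 at 0.59, Cd14 at 0.52, Spi1 at 0.31 and Adgre1 at 0.15. Markers of stroma, endothelium and epithelium (10 genes, summed signals 59.5 and 29.6) and of granulocytes and mast cells (8 genes, 40.6 and 33.1) were all below the floor, as were 7 of 8 T and B cell markers. The eighth, Zap70, had 97.0 against 45.9 and made up most of the summed signals of these 8, 113 and 66.3.

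Of the members, 8 genes were measured, each read from its brightest probe set. Bid and Bcl2l2 were at least 2-fold lower with adenosine, no member was 2-fold higher, and 6 lay within 2-fold of the array median. The 2 lower members of 8 (25%) stand beside 10.1% of all 6818 measured genes that were 2-fold lower and 4.52% that were 2-fold higher. Among the 21 measured member probe sets, 3 (14.3%) were 2-fold lower and 1 (4.76%) was 2-fold higher, against 9.51% and 5.88% of 11042 measured probe sets. These shares of probe sets lay near those of the whole array. The median log2 ratio of the 8 genes was -0.35, against -0.08 for all measured genes, and it was 0.09 over 7 genes when the log2 signals of all probe sets of a gene were averaged. In these whole-culture samples, fewer cells expressing a gene and less RNA per cell cannot be told apart.

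**Figure D1:**
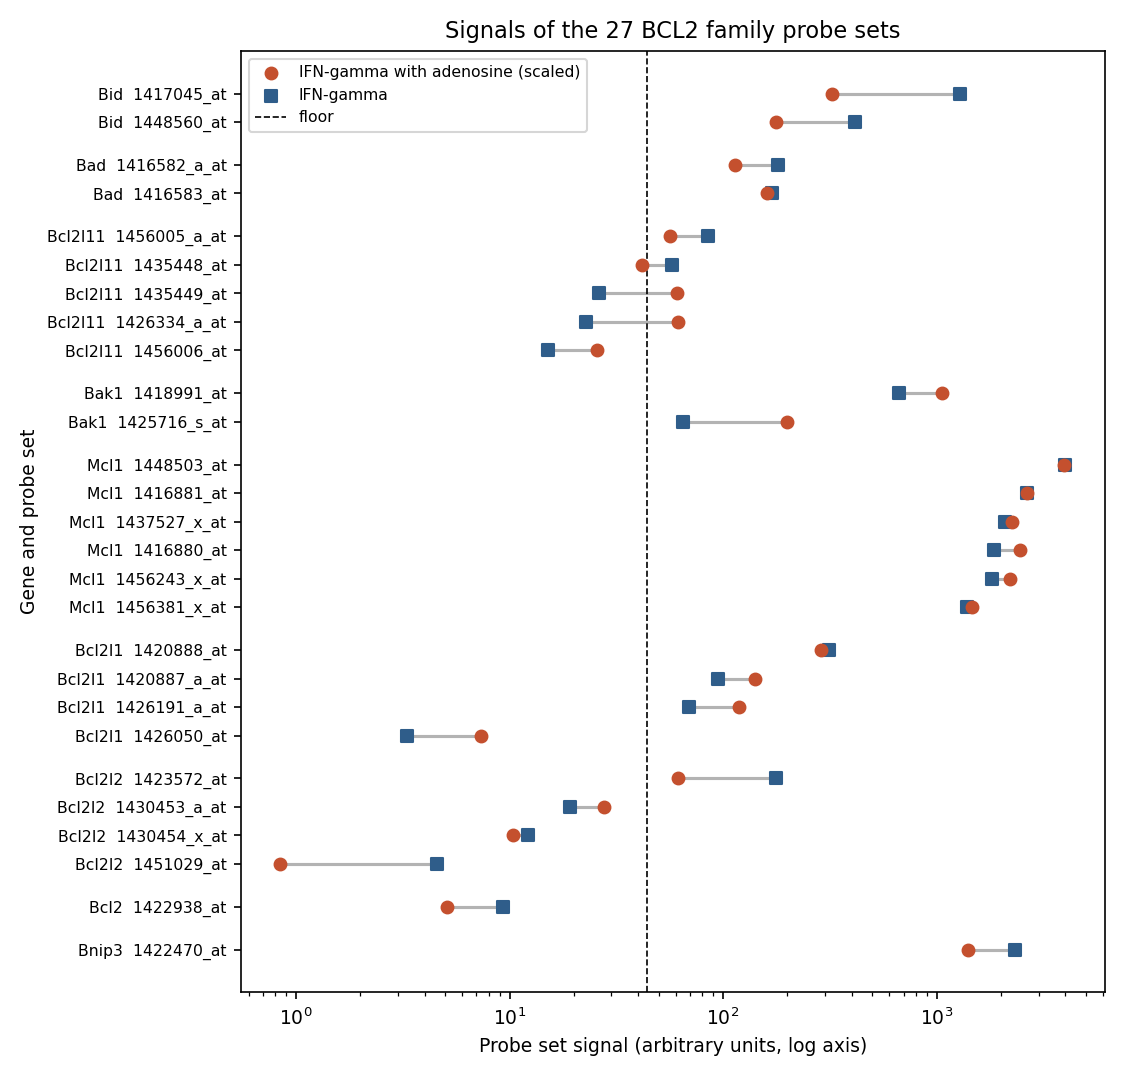
Signals of the 27 member probe sets on the array of IFN-gamma with adenosine (circles, scaled by 2.82) and on the IFN-gamma array (squares), on a log axis, with the floor of 44.0 dashed. Both Bid probe sets lie far to the left with adenosine, the 6 Mcl1 probe sets nearly coincide, and the single Bcl2 probe set is below the floor on both arrays.

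Among the BH3-only genes, Bid had the lowest ratio. BID is cut by caspase-8, and the cut form carries a death receptor signal to mitochondria. Its brighter probe set, 1417045_at, had a signal of 322 with adenosine and 1293 with IFN-gamma alone. Its other probe set, 1448560_at, had 176 with adenosine and 415 with IFN-gamma alone. Both readings were thus well above the floor on both arrays and lower with adenosine. They gave log2 ratios of -2.00 and -1.24, which are 4.01-fold and 2.36-fold lower. Their mean was -1.62 ± 0.54 (SD over 2 probe sets), and each lay more than the probe set SD of 0.52 below 0. By its brighter probe set Bid had the 93rd lowest log2 ratio of 6818 measured genes, with 1.35% of genes below it. Among genes with at least 2 measured probe sets, 3.94% of 2770 were 2-fold lower by both of their brightest, as Bid was, and 1.73% were 2-fold higher by both. In the deposited values, with no shift removed, its log2 ratio was -3.50.

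The 2 genes counted as lower, Bid and Bcl2l2, are shown with the 250 bases before their annotated starts (RefSeq, GRCm38.p6), beside Bak1, the member with the highest ratio, and Mcl1, which lay at the array median. The sequences run 5′ to 3′ along each gene, and capitals mark any match, on either strand, to 6 motifs chosen with the values known: TGACG (core of the cAMP response element), TTCNNNGAA (gamma-activated site), GAAANNGAA (core of the interferon-stimulated response element), GGNNTTTCC (NF-kB type site), GGGCGG (GC box) and ACGTG (core of the hypoxia response element).
Bid, chr6:120916825-120917074, minus strand: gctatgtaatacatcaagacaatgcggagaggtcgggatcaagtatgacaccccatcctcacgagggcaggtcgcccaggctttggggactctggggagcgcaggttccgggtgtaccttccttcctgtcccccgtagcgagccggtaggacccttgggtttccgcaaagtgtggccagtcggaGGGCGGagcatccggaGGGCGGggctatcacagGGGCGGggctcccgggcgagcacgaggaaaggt
Bcl2l2, chr14:54883175-54883424, plus strand: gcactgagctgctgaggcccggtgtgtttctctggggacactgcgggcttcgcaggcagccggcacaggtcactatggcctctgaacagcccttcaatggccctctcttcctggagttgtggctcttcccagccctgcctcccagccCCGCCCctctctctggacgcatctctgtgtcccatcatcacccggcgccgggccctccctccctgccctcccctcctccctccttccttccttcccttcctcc
Bak1, chr17:27028628-27028877, minus strand: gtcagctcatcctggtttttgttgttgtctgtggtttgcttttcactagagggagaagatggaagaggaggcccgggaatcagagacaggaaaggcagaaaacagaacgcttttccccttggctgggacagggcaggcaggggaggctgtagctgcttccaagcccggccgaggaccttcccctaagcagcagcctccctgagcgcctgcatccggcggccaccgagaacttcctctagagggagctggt
Mcl1, chr3:95658471-95658720, plus strand: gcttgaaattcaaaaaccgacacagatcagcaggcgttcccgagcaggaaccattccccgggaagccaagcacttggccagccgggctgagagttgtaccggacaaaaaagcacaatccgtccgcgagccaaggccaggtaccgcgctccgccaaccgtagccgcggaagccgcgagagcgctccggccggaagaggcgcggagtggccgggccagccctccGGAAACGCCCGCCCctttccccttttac
The Bid window held 3 GC boxes and the Bcl2l2 window 1. That of Bak1 held none of the 6 motifs. The capitals in Mcl1 are 1 NF-kB type match overlapping 1 GC box. Over the 13 annotated starts of the 9 members found in the table, 8 had a GC box, against 32.7% of 32851 mouse starts. TTCNNNGAA and GAAANNGAA were found at no member start, against 7.02% and 7.13% of all starts. GGNNTTTCC was found at 1 start each of Mcl1 and Bcl2l1 (4.93% of all), TGACG at Bcl2 alone (17.8%) and ACGTG at Bnip3 alone (16.6%). The G and C content of member windows ran from 47.6% in one Bcl2l1 window to 74.8% in Bcl2, against a median of 52.4% over all starts. Such matches describe letters in these windows and not bound sites.

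Bad encodes a BH3-only protein that is held inactive by phosphorylation and 14-3-3 binding when growth signals are present. Its probe set 1416583_at had a signal of 161 with adenosine and 169.5 with IFN-gamma alone, a log2 ratio of -0.07. Its probe set 1416582_a_at, of a type that can match several transcripts, had 114 with adenosine and 181 with IFN-gamma alone, a log2 ratio of -0.68. Neither reached 2-fold, and the first lay within the probe set SD of 0. The gene reading turned to 0.07 with quantile scaling and to 0.04 with loess scaling, so Bad has no settled direction here.

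Bcl2l11 encodes BIM, a BH3-only protein that binds every pro-survival member and is known for removing immune cells. All its 5 probe sets were dim, and 4 of them were measured. Probe set 1456005_a_at had 56.7 with adenosine and 84.6 with IFN-gamma alone, and 1435448_at had 41.7 with adenosine and 57.4 with IFN-gamma alone. These 2 readings were lower with adenosine, the first with a log2 ratio of -0.58 and the second, whose adenosine signal was below the floor, at least 1.30-fold lower. The next 2 ran the other way. Probe set 1435449_at had 60.9 with adenosine and 26.3 with IFN-gamma alone, and 1426334_a_at had 61.7 with adenosine and 22.9 with IFN-gamma alone. With the IFN-gamma signals raised to the floor they were at least 1.38-fold and at least 1.40-fold higher. The last, 1456006_at, did not reach the floor, at 25.7 with adenosine and 15.1 with IFN-gamma alone. With readings on both sides of 0, and 3 of the 4 given only as bounds, no direction is given for Bcl2l11.

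Bak1 encodes an effector that forms pores in the outer mitochondrial membrane. By brightest probe sets it was the 1 measured member above 0, where 56% of all measured genes lay below 0. Of the members below 0, Mcl1 (-0.02) and Bad (-0.07) were nearly level. Averaged over measured probe sets, Mcl1 (0.14) and Bcl2l1 (0.41) were also above 0, while Bid, Bcl2l2, Bad and Bnip3 stayed below. The Bak1 probe set 1418991_at had a signal of 1064 with adenosine and 667 with IFN-gamma alone. Probe set 1425716_s_at had 200.1 with adenosine and 65.0 with IFN-gamma alone. Both readings were higher with adenosine on this scale, with log2 ratios of 0.67 and 1.62, the second a 3.08-fold difference from an IFN-gamma signal near the floor. The gap of 0.95 between them is at least matched in 17.9% of 2770 genes, for which the median gap was 0.46. By its brighter probe set Bak1 stayed short of 2-fold, with 10.4% of measured genes above it. In the deposited values the brighter probe set turned to -0.82, and with spiked-in scaling to -0.29, while 1425716_s_at was 0.13 as deposited. Bak1 and Bid differed by 2.68 on the log2 scale, a difference that no common scaling factor can alter, against a scatter SD of 0.73 for a difference of 2 ratios.

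Of the guardians, Mcl1 was bright and lay at the array median. MCL1 is a short-lived protein that restrains BAK1 and BIM. Its brightest probe set, 1448503_at, had 3945 with adenosine and 4011 with IFN-gamma alone, a log2 ratio of -0.02. Over all 6 probe sets the log2 ratio ran from -0.02 to 0.41, with a mean of 0.14 ± 0.17 (SD). Its probe sets were closely grouped. The median SD of 111 genes with at least 5 measured probe sets was 0.47, and 7 of these genes had a smaller SD than Mcl1. Those 111 genes were not matched to Mcl1 for brightness. Scatter between probe sets was smaller in the brightest genes, at 0.40, than in the dimmest, at 0.55. The gene reading became -0.29 with loess scaling, which removes a trend with brightness, and -1.52 as deposited. The log2 ratio of Bid minus that of Mcl1 was -1.98.

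Bcl2l1 encodes BCL-XL, and a shorter splice form of it promotes death. Its probe set 1420888_at had a signal of 286 with adenosine and 312.5 with IFN-gamma alone. Probe set 1420887_a_at had 140.4 with adenosine and 94.8 with IFN-gamma alone, and 1426191_a_at had 119 with adenosine and 69.1 with IFN-gamma alone. The brightest reading was nearly level while the dimmer readings, both of a type that can match several transcripts, were higher with adenosine, with log2 ratios of -0.13, 0.57 and 0.78. None reached 2-fold, and the mean was 0.41 ± 0.48 (SD over 3 probe sets). The fourth, 1426050_at, did not reach the floor, at 7.33 with adenosine and 3.30 with IFN-gamma alone. Averaging the log2 signals of all 4, this dim one included, gave a log2 ratio of 0.59. Which splice form each probe set reads was not tested.

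Bcl2l2, which encodes the guardian BCL-W, was the second member counted as lower. Its probe set 1423572_at had 61.4 with adenosine and 176.5 with IFN-gamma alone, a log2 ratio of -1.52, or 2.87-fold lower. This is more than the SD of 0.55 for the dimmest genes, and 3.33% of measured genes had a lower ratio. It rests on 1 probe set. The other 3 did not reach the floor on either array, at 27.6, 10.4 and 0.846 with adenosine and 19.2, 12.2 and 4.60 with IFN-gamma alone. With the floor at the 67th percentile, which lies at 165 and above the adenosine signal, the ratio shrank to -0.10, and with the mean of all probe sets the gene was no longer measured. Bcl2l1 lay 1.39 above Bcl2l2 on the log2 scale.

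Bcl2, the founding guardian of the family, was below the floor on both arrays by its only probe set, 1422938_at, with 5.07 with adenosine and 9.30 with IFN-gamma alone. No ratio is given for it.

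Bnip3 encodes a mitophagy receptor known as a target of hypoxia-inducible factors. Its single probe set, 1422470_at, had a signal of 1398 with adenosine and 2321 with IFN-gamma alone. This is a log2 ratio of -0.73, 1.66-fold lower and short of the 2-fold threshold, although beyond the SD of 0.40 of the brightest genes. Among measured genes 16.4% had a lower ratio. Its value moved little, from -0.75 to -0.68, over the settings in which the shift between arrays was removed, and was -2.23 as deposited.

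**Figure D2:**
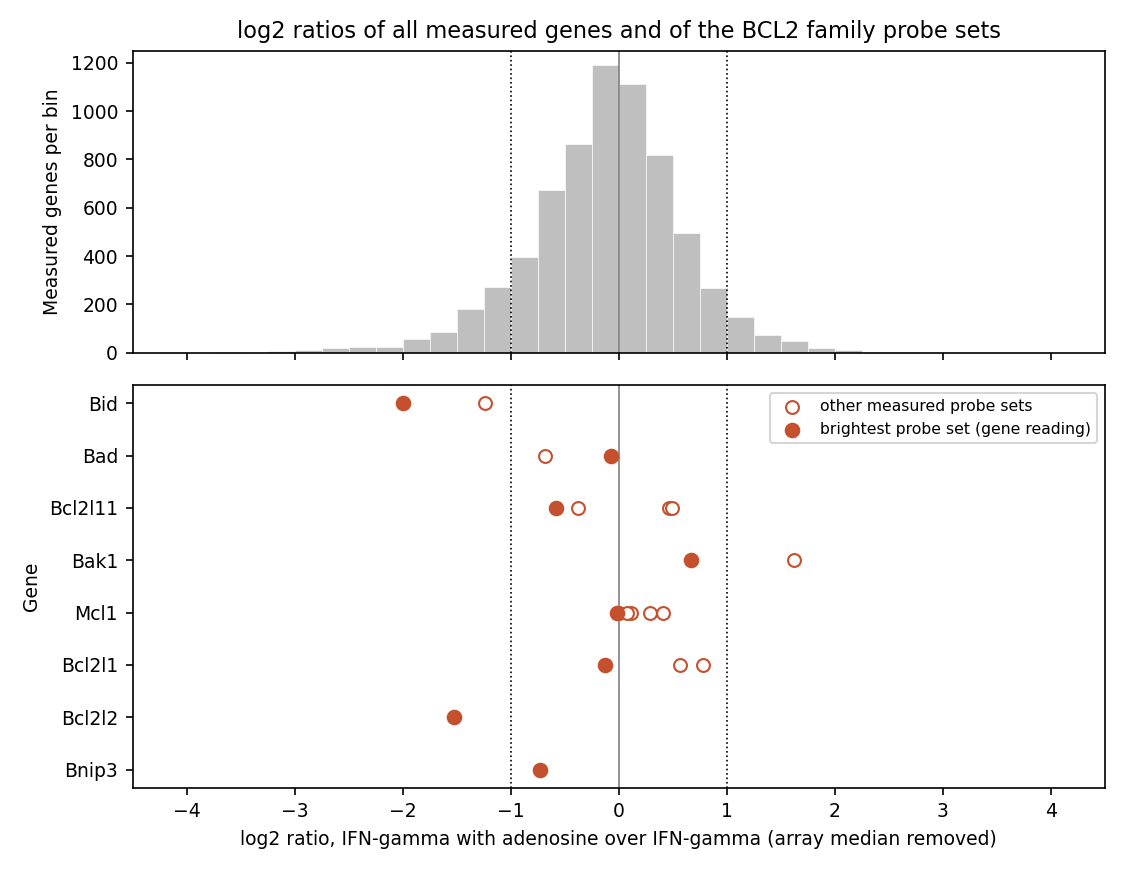
Top, number of measured genes (of 6818) per bin of 0.25 in log2 ratio of IFN-gamma with adenosine over IFN-gamma. Below, the 21 measured member probe sets, filled for the brightest of each gene and open for the others, with dotted lines at 2-fold. Bid is the gene with 2 readings beyond the 2-fold line on the lower side. The readings of Bcl2l11 and Bcl2l1 fall on both sides of 0, as do those of Mcl1, from -0.02 to 0.41.

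Genes that act with the members were taken from 4 lists. Of 17 further BCL2 family and BH3-related genes, 12 had a probe set here and 4 were measured, none of them 2-fold different (median log2 ratio -0.02). The shares of all measured genes were 10.1% lower and 4.52% higher. With the floor at the 33rd percentile 7 of the list were measured, of which 1 was 2-fold lower and 1 was 2-fold higher. Becn1, an autophagy protein gene with a BH3 domain, was at 1043 with adenosine and 700.3 with IFN-gamma alone, a log2 ratio of 0.58, and a second probe set gave -0.22. Bnip2 was level at 931 and 968. The A1 genes (Bcl2a1a to Bcl2a1d) are not analysed here.

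In the pathway downstream of the mitochondrial pore, 11 genes were measured, 1 was 2-fold lower and none was 2-fold higher. These counts stand beside 10.1% and 4.52% of all measured genes. The median log2 ratio of the list was -0.43. Xiap, which encodes an inhibitor of caspases, had 355 with adenosine and 805 with IFN-gamma alone, 2.27-fold lower, but a second probe set was level at -0.07. Htra2, a mitochondrial protease gene whose product relieves that inhibition, had 299.6 with adenosine and 532 with IFN-gamma alone, a log2 ratio of -0.83, and its second probe set gave -2.21. Cycs, the cytochrome c gene, was level at 3671 and 3829.

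Among kinases, adaptors and ligases that act on the members, 28 genes were measured, of which 6 were 2-fold higher and 1 was 2-fold lower (median log2 ratio 0.10), beside 4.52% and 10.1% of all measured genes. With quantile scaling, loess scaling or the pseudocount 4 were 2-fold higher, beside 5.83%, 5.28% and 2.63% of all measured genes. Ier3 (2.01-fold), Bag4 (2.02-fold) and Tpt1 (2.07-fold) lay close to the threshold. Bag3, a co-chaperone gene whose product stabilises pro-survival proteins, had 525 with adenosine and 157 with IFN-gamma alone, 3.35-fold higher. Akt1, a kinase gene whose product phosphorylates BAD, had 1392 with adenosine and 489.6 with IFN-gamma alone, 2.84-fold higher, and its second probe set read 0.72 on the log2 scale. Prkaca, which encodes a catalytic subunit of the cAMP-dependent kinase and also acts on BAD, had 418 with adenosine and 158 with IFN-gamma alone, 2.64-fold higher. Ywhag, a 14-3-3 gene, was the lower one, with 1574 with adenosine and 3598 with IFN-gamma alone, a log2 ratio of -1.19. Its second probe set gave -0.76, short of 2-fold. With the mean of all probe sets no gene of this list was 2-fold lower. Casp8, which encodes the protease that cuts BID, was within 2-fold at 906 and 704. None of the 6 was 2-fold higher in the values as deposited or with spiked-in scaling. On these scales 18 and 10 genes of the list were lower, beside 78.8% and 50.7% of all measured genes. With probe sets that can match several transcripts left out, 2 of 22 measured genes of the list were 2-fold higher, beside 4.8%.

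Of the mitophagy partners of BNIP3, 16 were measured, 1 was 2-fold higher and none 2-fold lower (median log2 ratio 0.31). The shares of all measured genes were 4.52% higher and 10.1% lower. Map1lc3a, of the LC3 family that binds mitophagy receptors, had 158 with adenosine and 29.4 with IFN-gamma alone, at least 3.59-fold higher. Tax1bp1, an autophagy receptor gene, had 408 with adenosine and 672 with IFN-gamma alone, a log2 ratio of -0.72, and its second probe set gave -1.05. Most LC3 and GABARAP genes lay modestly above 0, with Gabarap at 0.70 and Map1lc3b at 0.21, values that are below 0 once the shift of -1.50 is put back.

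**Figure D3:**
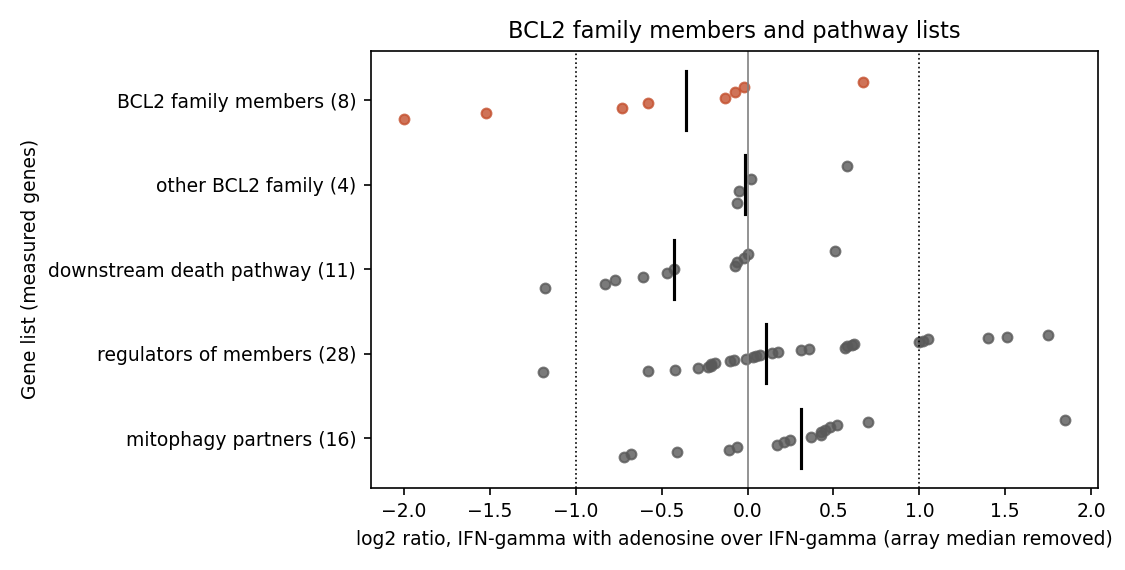
Log2 ratios of IFN-gamma with adenosine over IFN-gamma for measured genes of the BCL2 family (top row, 8 genes) and of the 4 pathway lists, 1 point per gene, with the list median as a black bar and dotted lines at 2-fold. The member median is -0.35, and the largest list value is that of Map1lc3a at 1.85.

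**Figure D4:**
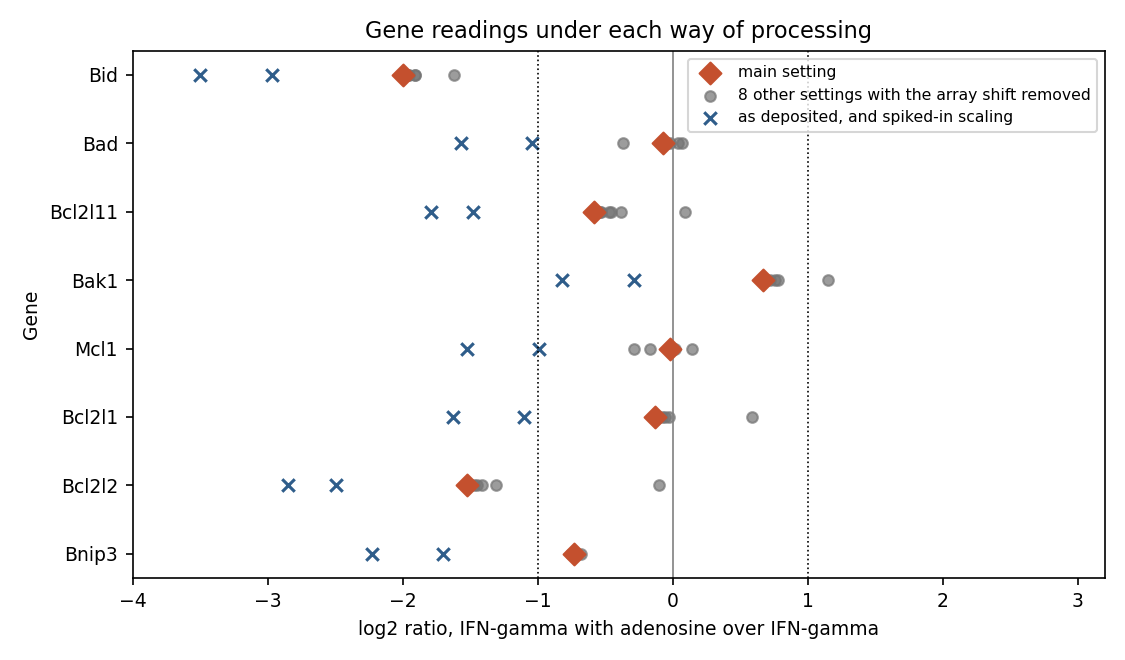
Log2 ratio of each measured member gene in the main processing (diamonds), in up to 8 others that also removed the shift between arrays (circles), and in the deposited values and with spiked-in scaling (crosses), with dotted lines at 2-fold. Bid stays beyond the 2-fold line throughout, from -3.50 to -1.62, while Bak1 lies above 0 only where the shift was removed.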

How the data were processed

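The authors deposited linear intensity values of 22690 probe sets on 2 arrays (1 per treatment). Per the submitters' processing notes they were made with GCOS, Affymetrix software; how signals were summarised and scaled there is not given in the sources used here. Array number limits the precision of every value. After leaving out 64 control probe sets, 20380 of 22626 carried 1 symbol, 691 several and 1555 no name here; symbols were updated through Entrez identifiers (RefSeq, GRCm38.p6).

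Log2 ratios of IFN-gamma with adenosine over IFN-gamma were centred on the median of 10051 probe sets above the pooled median signal on both arrays. The floor was the 50th percentile of scaled signals. Each gene was read from its brightest probe set, and 2-fold was the threshold. Calculations used Python 3.11.15, numpy 2.4.6, pandas 2.3.3 and statsmodels 0.14.6 and were tested on simulated data. All members were described whatever their value. Of each pathway list, the 2 measured genes with the largest absolute log2 ratio were named, and further genes at 2-fold up to 4 in all; Cycs, Casp8, Gabarap, Map1lc3b, the markers and 3 regulators near the threshold were named as examples after their values were seen. Members, lists, motifs and processing were chosen with earlier results of these data known. Protein sequences are not used here.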

Additional observations from a re-analysis of the deposited data

How the results depend on the processing

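No paired analysis was possible because both groups consist of a single array, which also leaves nothing to omit in turn. Bid was at least 2-fold lower under every scaling, floor and probe set rule tried, and in the main processing it passed the 3-fold threshold. Bcl2l2 was 2-fold lower under all of these rules but the floor at the 67th percentile and the mean of all probe sets. At 2.87-fold in the main processing, Bcl2l2 did not pass the 3-fold threshold. In the values as deposited, 7 member genes and 15 member probe sets were 2-fold lower and 0 probe sets higher, the member median was -1.71 and 78.8% of all measured genes were lower. There, 10 downstream, 12 mitophagy, 3 other family and 18 regulator genes were 2-fold lower and none of these lists had a gene 2-fold higher. With spiked-in scaling the counts were 6 member genes and 8 probe sets lower and 0 probe sets higher, with a median of -1.29, beside 50.7% of all measured genes lower and a median of -1.01. There, 8 downstream, 2 other family and 10 regulator genes were lower and none higher, and 6 mitophagy genes passed 2-fold, 5 of them lower. Most regulator and mitophagy genes that passed 2-fold with the shift removed were higher, and most that passed on both of these scales were lower. These are counts per scale and do not follow the same genes. The floor at the 67th percentile left 1 of 7 measured member genes lower, 0 of 15 member probe sets higher and 0 of 13 mitophagy genes. Of all measured genes, 6.48% were then lower and 2.63% higher. The floor at the 33rd gave 3 of 25 measured member probe sets higher. It also gave 2 of 7 measured other family genes, 1 lower and 1 higher. Of all measured genes, 10.3% were lower and 6.53% higher there. The shares in this section are of genes, and shares of all probe sets were not worked out for the alternatives. The mean of all probe sets gave 1 member gene lower (Bid), 1 higher (Bak1, 1.15) and 2 mitophagy genes. The shares of all measured genes there were 8.2% lower and 4.3% higher. Without shared probe sets, 0 member probe sets were higher and 3 regulators passed, beside 10.1% of all measured genes lower and 4.8% higher. A 1.5-fold threshold gave 3 member genes lower and 1 higher, and 5 probe sets lower and 3 higher. It also gave 4 downstream genes, all lower, and 4 mitophagy genes, 2 lower and 2 higher. At that threshold 21.8% of all measured genes were lower and 12.9% higher. A 3-fold threshold gave 1 member gene lower, and 1 member probe set lower and 1 higher. It also gave 0 downstream genes, 1 regulator, which was higher, and 1 mitophagy gene, also higher. There, 2.96% of all measured genes were lower and 0.983% higher. Of 78 member gene readings under alternatives, 59 moved by less than the probe set SD of 0.52. Signals near the floor limit Bcl2l2 and Bcl2l11. The causes of these shifts were not tested, except that a floor above both signals removes a ratio by construction.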

Other observations

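A few further pathway genes were picked out after their values were seen. Probe set readings did not match in several genes, among them Casp9 and Usp9x. Of the regulator list, Ywhaz was at -0.21 by its brightest and 1.07 by its second, and Hif1a at -0.29 and 0.72. Casp9, the initiator caspase of the mitochondrial pathway, was level by its brightest probe set (112 with adenosine and 113 with IFN-gamma alone) while a second gave a log2 ratio of 1.29. Usp9x, a deubiquitinase gene whose product spares MCL1, was at -0.01 by its brightest and -0.95 by its second. Bag4, another co-chaperone gene, was higher by both, at 1.02 and 1.67. Tpt1, whose product binds MCL1 and BCL-XL, had 15365 with adenosine and 7406 with IFN-gamma alone, a log2 ratio of 1.05 from a single measured probe set. Ier3, an early response gene whose product binds MCL1, had 3272 with adenosine and 1631 with IFN-gamma alone, a log2 ratio of 1.00, also from a single measured probe set. The positive values here are smaller, or below 0, in the deposited values.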
